A study of Homo sapiens with 6 samples.

Results

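The 31 genes described here make cholesterol, sense it or move it between membranes. They were chosen by gene symbol: 19 synthesis enzymes, 6 regulators and 6 transport genes. All 31 had a row among the 58174 genes of the deposited expression files, and 30 reached 0.5 RPKM in at least 3 of the 6 samples, the filter that left 12428 genes for testing. ABCG1 did not.

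The study measured polyA RNA of T24 cells, an established human bladder cancer line, by RNA-seq. The samples named shRNA-NC (n = 3) carried a negative control short hairpin RNA, and those named shRNA-UBC9 (n = 3) carried a hairpin against UBC9. Both groups had been made by lentiviral delivery and puromycin selection, so that stably selected cells were compared with stably selected cells. The study's methods give 1 hairpin against UBC9, so a response to the loss of UBC9 and a response to that hairpin cannot be told apart. The cells were grown in medium with fetal bovine serum. Expression was given as RPKM, the reads of a gene scaled to its length and to all mapped reads of the sample, so levels can be set side by side between genes. The steps of the lowest values placed the depth at 28219032 to 36058872 mapped reads per sample. The tested members had between 30 reads (MYLIP) and 6304 reads (SREBF2) in a sample.

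UBC9 is the enzyme that joins the small protein SUMO to its targets. Cells make cholesterol from acetyl-CoA by way of mevalonate, farnesyl diphosphate, squalene and lanosterol. When sterols are low, SCAP carries SREBP2, the product of SREBF2, from the endoplasmic reticulum to the Golgi, where it is cut to release a transcription factor that switches on the synthesis enzymes. When sterols are high, the INSIG proteins hold SCAP back. Oxysterols act in the opposite direction through LXR, a nuclear receptor that switches on the exporters ABCA1 and ABCG1 and the ubiquitin ligase MYLIP. Cholesterol that enters by endocytosis leaves the lysosome through NPC2 and NPC1.

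Every fold change below is the limma estimate of shRNA-UBC9 over shRNA-NC on log2(RPKM + 0.1), which understates the change of low genes, and a gene was called changed at a Benjamini-Hochberg adjusted p below 0.05 over all tested genes.

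Over the whole series 18.0% of tested genes were called lower in shRNA-UBC9 and 18.8% were called higher. Of the 30 tested members, 11 were lower (36.7%) and 2 were higher (6.67%). The lower members were ACAT2, MVK, IDI1, FDPS, FDFT1, SQLE, LSS and DHCR7 among the enzymes, INSIG1 and MYLIP among the regulators, and NPC2 among the transport genes. The higher members were NPC1 and ABCA1. The study's cutoff for a differentially expressed gene (DEG) asks in addition for a log2 fold change beyond 1 either way. It was passed downward by 2.7% of tested genes and upward by 5.2%, and by 1 member, INSIG1, downward. Ranges of the groups that did not overlap, with shRNA-UBC9 below, occurred in 13 members against 25.4% of all tested genes, and with shRNA-UBC9 above in 4 members against 25.7%. In the bulk RNA of a cell line, a lower level in every cell and fewer cells that express a gene cannot be told apart.

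**Figure D1:**
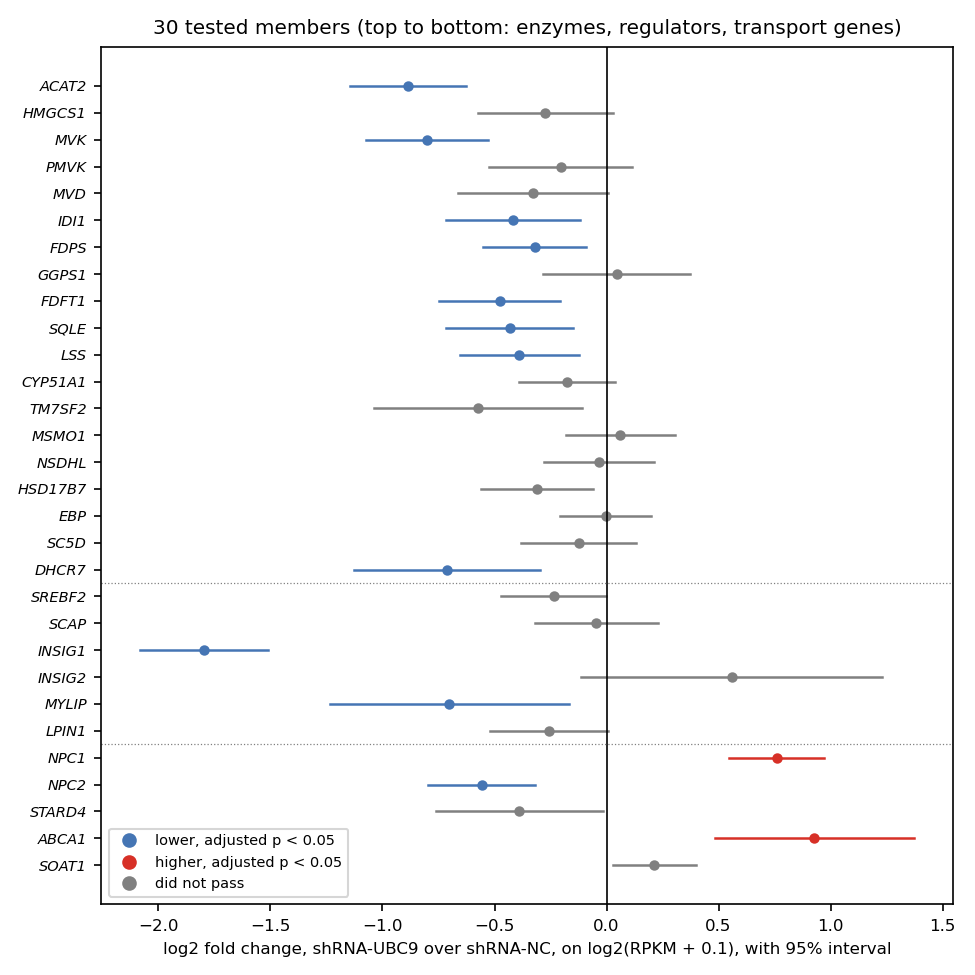
Fold changes of the 30 tested members. The horizontal axis is the limma log2 fold change of shRNA-UBC9 over shRNA-NC (n = 3 per group), points are estimates, bars are 95% intervals, and colour marks the call at adjusted p below 0.05. Points of 17 of the 19 enzymes lie below 0, INSIG1 lies farthest from 0 at -1.80, and NPC1 and ABCA1 are the members called higher.

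Promoter sequences are shown for some of the members called changed (INSIG1, MVK, NPC1 and ABCA1) and for SREBF2. Of the member windows, that of SREBF2 alone held an exact match to the core of the sterol regulatory element. RefSeq promoter windows of GRCh38.p14 were found for 27 of the 31 members. ACAT2, the enzyme with the largest fall, FDFT1, SQLE and ABCG1 had none. Each stretch is printed 5′ to 3′ on the strand of the gene and covers 250 bases before the start of the gene, except that of INSIG1, which is 148 bases long and ends where GENCODE release 44 places the first base of that gene. The first bases of the MVK stretch lie in an exon of other MVK transcripts, and the other stretches lie outside the exons of their genes. Capitals mark the motifs searched on both strands: TCACNCCAC (core of the sterol regulatory element, the site to which SREBP binds), CCAAT (the CCAAT box bound by NF-Y), GGGCGG (the GC box bound by SP1) and CACGTG (an E-box).
INSIG1, chr7:155297628-155297775, plus strand: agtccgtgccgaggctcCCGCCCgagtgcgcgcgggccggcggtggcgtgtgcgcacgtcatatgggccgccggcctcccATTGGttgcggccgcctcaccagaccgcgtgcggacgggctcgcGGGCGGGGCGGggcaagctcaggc
MVK, chr12:109573544-109573793, plus strand: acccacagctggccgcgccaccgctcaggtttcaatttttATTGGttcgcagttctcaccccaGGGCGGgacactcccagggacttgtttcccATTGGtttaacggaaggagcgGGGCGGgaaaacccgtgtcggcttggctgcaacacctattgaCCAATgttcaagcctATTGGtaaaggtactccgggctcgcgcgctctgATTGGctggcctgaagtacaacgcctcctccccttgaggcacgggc
NPC1, chr18:23586507-23586756, minus strand: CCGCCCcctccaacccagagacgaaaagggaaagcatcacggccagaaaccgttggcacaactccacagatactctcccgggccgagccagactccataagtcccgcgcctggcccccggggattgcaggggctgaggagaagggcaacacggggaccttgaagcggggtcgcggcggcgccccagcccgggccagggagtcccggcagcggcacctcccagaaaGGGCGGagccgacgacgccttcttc
ABCA1, chr9:104928156-104928405, minus strand: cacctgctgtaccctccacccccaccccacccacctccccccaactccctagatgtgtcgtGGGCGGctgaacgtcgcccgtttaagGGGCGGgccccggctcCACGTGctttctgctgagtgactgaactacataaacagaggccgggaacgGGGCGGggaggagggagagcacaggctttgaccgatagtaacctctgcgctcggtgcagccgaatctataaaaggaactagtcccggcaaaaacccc
SREBF2, chr22:41832855-41833104, plus strand: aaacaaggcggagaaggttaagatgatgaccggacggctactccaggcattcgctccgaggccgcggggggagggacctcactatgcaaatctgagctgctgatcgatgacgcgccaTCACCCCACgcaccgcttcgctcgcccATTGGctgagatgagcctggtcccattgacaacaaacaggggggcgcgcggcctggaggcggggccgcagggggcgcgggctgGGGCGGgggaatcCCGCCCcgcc

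The sterol element core was found in 1 of 38 member windows, that of SREBF2, with its first base at position -133 relative to the start, and in 0.883% of the 35116 windows of all genes. A CCAAT box was found in 22 of the 38 member windows (57.9%), against 32.0% of all windows. The MVK stretch holds 5 of them, that of INSIG1 1, and those of NPC1 and ABCA1 0. By gene, 20 of the 27 members with a window held one. Among them were all members called lower that had a window (INSIG1, MVK, IDI1, FDPS, LSS, DHCR7, MYLIP and NPC2). Members that did not pass held them as well, such as NSDHL, MSMO1 and EBP, with fold changes of -0.03, 0.06 and -0.004. Whether these boxes bear on the changes was not tested. GC boxes were found in 34 of the member windows (89.5%), against 42.6% of all, and E-boxes in 5 (13.2%), against 6.34%. Members that fell and members that rose both held GC boxes, as in INSIG1 (3 in the stretch printed), MVK (2), NPC1 (2) and ABCA1 (3). A match of letters is a description of the window and does not show that a factor binds there. Only exact letters were searched, so a window without a match may still hold a variant of the element.

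INSIG1 and its paralogue INSIG2 encode the anchors that hold SCAP in the endoplasmic reticulum, and INSIG1 is itself a target of SREBP2. INSIG1 (chr7:155297776-155310235, plus strand) was at 12.8, 15.6 and 12.3 RPKM in shRNA-NC and at 3.52, 4.36 and 3.60 RPKM in shRNA-UBC9. The highest shRNA-UBC9 sample was well below the lowest shRNA-NC sample. INSIG1 fell by 1.80 on the log2 scale (limma, SE 0.13, adjusted p = 5.39e-05). INSIG2 (chr2:118088452-118110997, plus strand) was at 3.68, 4.13 and 3.88 RPKM in shRNA-NC and at 10.2, 4.35 and 4.35 RPKM in shRNA-UBC9. All 3 shRNA-UBC9 samples were above the shRNA-NC samples, but replicates 2 and 3 only just, and replicate 1 stood apart from every other sample. The fold change of INSIG2 was 0.56 with a 95% interval of -0.11 to 1.23 and did not pass (limma, adjusted p = 0.17), and without shRNA-UBC9 replicate 1 it was 0.16. The ratio of INSIG1 to INSIG2, in RPKM, was 3.47, 3.77 and 3.18 in shRNA-NC and 0.35, 1.0 and 0.83 in shRNA-UBC9. INSIG1 was the more abundant of the pair in every control sample, whereas both were at the same level in shRNA-UBC9 replicate 2 and INSIG2 was the more abundant in replicates 1 and 3.

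SREBF2 encodes the transcription factor and SCAP its escort. SREBF2 (chr22:41833105-41907306, plus strand) was at 24.9, 20.6 and 24.7 RPKM in shRNA-NC and at 18.5, 20.9 and 20.1 RPKM in shRNA-UBC9, and the groups overlapped. Its fold change was -0.24 with a 95% interval of -0.47 to -0.001 (limma, adjusted p = 0.105). SCAP ran from 8.55 to 10.8 RPKM in shRNA-NC and from 8.34 to 10.2 RPKM in shRNA-UBC9, with a fold change of -0.05 and an interval of -0.32 to 0.23. LPIN1, a phosphatidate phosphatase that also acts on SREBP in the nucleus, was at 2.71 to 3.04 RPKM and at 2.10 to 2.56 RPKM, with an interval of -0.52 to 0.01. None of these 3 genes passed the test.

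MYLIP encodes a ubiquitin ligase that marks lipoprotein receptors for degradation. It was at 0.56, 0.83 and 0.89 RPKM in shRNA-NC and at 0.50, 0.42 and 0.35 RPKM in shRNA-UBC9, with 30 to 91 reads per sample. The groups did not overlap, and MYLIP fell by 0.70 on the log2 scale (limma, SE 0.23, adjusted p = 0.0453). Only the 3 shRNA-NC samples and 1 shRNA-UBC9 sample reached the filter of 0.5 RPKM, so this gene passed the filter through the group where it was high. Of the 6 regulators, 2 were lower (33.3%, against 18.0% of all tested genes) and 0 higher (against 18.8%). The count lower was 1 without shRNA-NC replicate 3, without shRNA-UBC9 replicate 2 or without shRNA-UBC9 replicate 3. Each of these removals ended the call of MYLIP. Without shRNA-NC replicate 2 MYLIP lost its call as well and SREBF2 (-0.32) gained one, so the count stayed at 2.

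**Figure D2:**
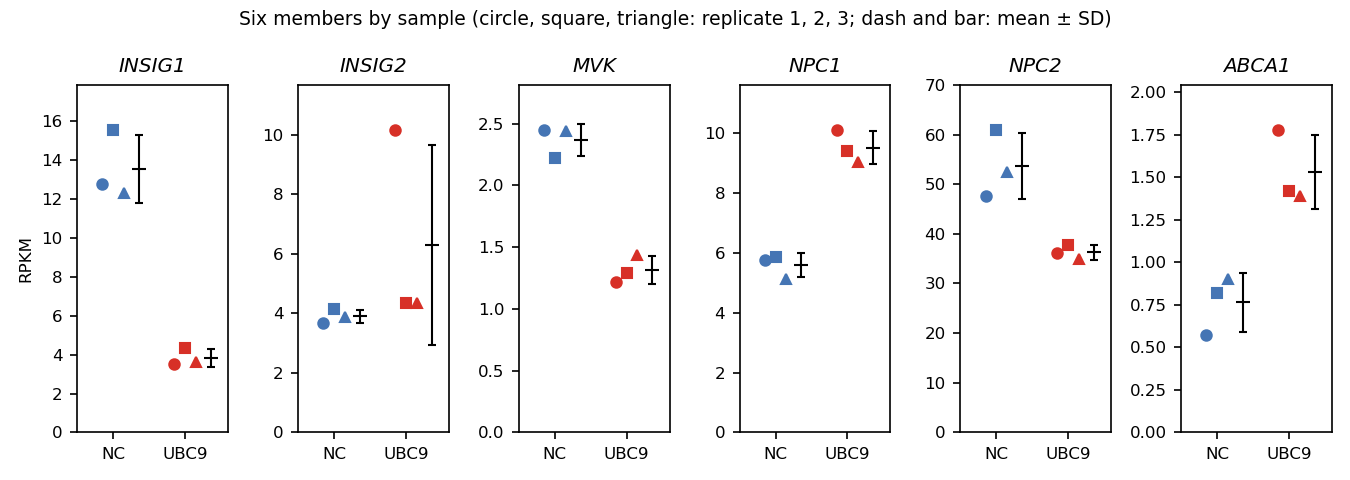
RPKM of INSIG1, INSIG2, MVK, NPC1, NPC2 and ABCA1 in each sample. Each panel has its own linear axis from 0, blue points are shRNA-NC, red points are shRNA-UBC9, the symbol gives the replicate, and the dash with its bar is the mean ± SD (n = 3). INSIG1, MVK and NPC2 are lower and NPC1 and ABCA1 higher in all 3 shRNA-UBC9 samples, whereas the mean of INSIG2 is raised by replicate 1 at 10.2 RPKM.

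The 19 synthesis enzymes were described in pathway order. Of these, 8 were lower (42.1%, against 18.0% of all tested genes) and 0 were higher (against 18.8%). A fold change below 0 was found in 17 enzymes, and in 6144 of the 12428 tested genes. The median fold change of the enzymes was -0.32, beside a median of 0.01 over all tested genes. Summed over the 19 enzymes, expression was 267.7, 258.8 and 268.6 RPKM in shRNA-NC and 191.7, 232.0 and 221.4 RPKM in shRNA-UBC9, or 265.1 ± 5.4 and 215.0 ± 20.9 (SD, n = 3). Knockdown replicate 1 had the lowest level of all 6 samples for 13 enzymes, replicate 3 for 4 and replicate 2 for 0. Within the knockdown group alone, replicate 1 was the lowest for 13 enzymes, replicate 3 for 6 and replicate 2 for 0. Over all tested genes, replicates 1, 3 and 2 were the lowest of that group for 41.7%, 34.6% and 23.7%. Without shRNA-NC replicate 3 the number of enzymes called lower was 2, ACAT2 and MVK, and it was 5 without shRNA-NC replicate 1 and 5 without shRNA-UBC9 replicate 1.

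The first steps turn acetyl-CoA into mevalonate and then into isoprenoid units. ACAT2, the cytosolic thiolase that joins a pair of acetyl-CoA molecules, was at 20.3, 20.2 and 18.8 RPKM in shRNA-NC and at 9.02, 11.3 and 11.8 RPKM in shRNA-UBC9. No sample of one group reached the other, and ACAT2 fell by 0.89 on the log2 scale (limma, SE 0.11, adjusted p = 0.000862). Its exons (chr6:159762045-159779112, plus strand) share 454 bases with TCP1 and 133 bases with SOD2 on the opposite strand, and the strand setting of the counting was not stated. TCP1 was at 53.2 RPKM in shRNA-NC and 49.1 RPKM in shRNA-UBC9 (group means), while SOD2 was at 8.01 and 47.7 RPKM, opposite in direction to ACAT2. MVK, mevalonate kinase (chr12:109573255-109598125, plus strand), was at 2.45, 2.22 and 2.44 RPKM in shRNA-NC and at 1.22, 1.29 and 1.44 RPKM in shRNA-UBC9. Again the groups lay apart, and MVK fell by 0.80 on the log2 scale (limma, SE 0.12, adjusted p = 0.00166). MMAB, which shares 225 exonic bases with MVK on the opposite strand, was at 2.41 and 1.40 RPKM, so reads of these neighbours cannot be told apart in the shared bases.

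The other steps up to farnesyl diphosphate moved less. IDI1, the isomerase of isopentenyl diphosphate, was at 10.1, 11.6 and 12.4 RPKM in shRNA-NC and at 8.05, 10.0 and 7.46 RPKM in shRNA-UBC9. Its groups lay next to each other without overlap, and it fell by 0.42 on the log2 scale (limma, adjusted p = 0.0361). FDPS, farnesyl diphosphate synthase, was at 42.9, 37.5 and 40.9 RPKM in shRNA-NC and at 29.0, 33.1 and 35.1 RPKM in shRNA-UBC9. It was the most abundant enzyme message of the 19, its groups did not overlap, and it fell by 0.32 on the log2 scale (limma, adjusted p = 0.0361). RUSC1-AS1, which shares 693 exonic bases with FDPS on the opposite strand, was at 1.46 and 1.22 RPKM, and the 8 pseudogenes of FDPS with a row in the files were at no more than 0.057 RPKM. HMGCS1, the synthase that precedes mevalonate, was at 12.7 to 14.6 RPKM in shRNA-NC and at 9.78 to 13.7 RPKM in shRNA-UBC9, with a 95% interval of -0.58 to 0.03 around -0.27. PMVK and MVD, the kinase and the decarboxylase after mevalonate kinase, had fold changes of -0.21 (interval -0.52 to 0.11) and -0.33 (interval -0.66 to 0.01). GGPS1, which draws farnesyl diphosphate into the geranylgeranyl branch away from sterols, was at 4.67 to 6.36 RPKM and at 5.09 to 6.60 RPKM, with an interval of -0.28 to 0.37. In all, 4 of the 8 genes of these steps were lower, against 18.0% of all tested genes, and 4 did not pass.

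**Figure D3:**
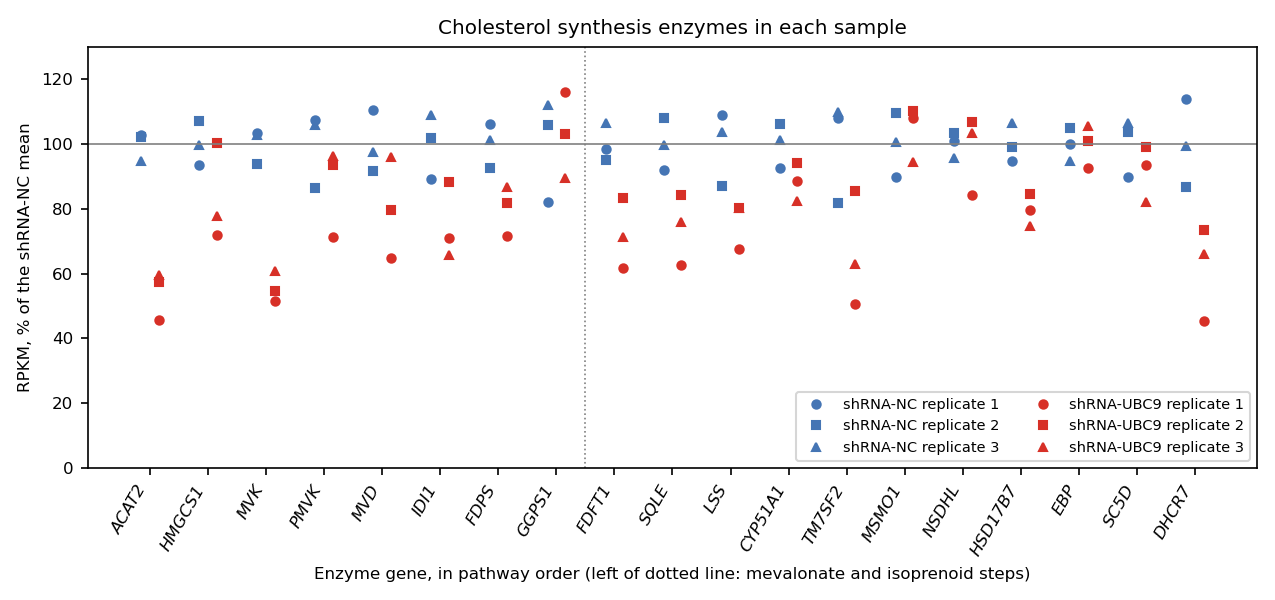
The 19 synthesis enzymes in each sample, in pathway order. The vertical axis is the RPKM of a sample as a percentage of the shRNA-NC mean of that gene, on a linear scale from 0, and symbols mark the replicate. For ACAT2, MVK and DHCR7 all red points lie below 75%, for EBP, NSDHL, MSMO1 and GGPS1 red and blue points mix around 100%, and the red circle of shRNA-UBC9 replicate 1 is the lowest point for 13 of the 19 genes.

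From farnesyl diphosphate onward the carbon is committed to squalene and sterols. FDFT1, squalene synthase, was at 20.7, 20.0 and 22.4 RPKM in shRNA-NC and at 13.0, 17.5 and 14.99 RPKM in shRNA-UBC9, and it fell by 0.48 on the log2 scale (limma, adjusted p = 0.0151). SQLE, the squalene epoxidase, was at 11.9, 13.9 and 12.9 RPKM against 8.08, 10.9 and 9.77 RPKM, and it fell by 0.43 (limma, adjusted p = 0.0265). LSS, which closes the rings to lanosterol, was at 14.96, 11.95 and 14.25 RPKM against 9.28, 11.04 and 11.01 RPKM, and it fell by 0.39 (limma, adjusted p = 0.0311). These 3 successive enzymes each had all shRNA-UBC9 samples below all shRNA-NC samples. The same held for 9 of the 19 enzymes in all and for 25.4% of all tested genes.

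Of the member genes for the steps between lanosterol and the last reductions, none passed the test. LBR, not a member, shares the reductase activity of TM7SF2 and fell by 0.52 (limma, adjusted p = 0.00403). CYP51A1, lanosterol demethylase, was at 13.8 to 15.9 RPKM in shRNA-NC and at 12.3 to 14.1 RPKM in shRNA-UBC9, with a 95% interval of -0.39 to 0.04. MSMO1 and NSDHL, which remove methyl groups from the sterol ring, had fold changes of 0.06 (interval -0.18 to 0.30) and -0.03 (interval -0.28 to 0.21). For EBP, the sterol isomerase, the estimate was -0.004 (interval -0.21 to 0.20), and for SC5D, a sterol desaturase, it was -0.13 (interval -0.38 to 0.13). The intervals of CYP51A1 and SC5D include a fall of the size estimated for FDPS, those of MSMO1, NSDHL and EBP do not, and none of the 5 includes a fall of the size estimated for ACAT2. TM7SF2, a sterol reductase, was at 2.07, 1.57 and 2.11 RPKM against 0.97, 1.64 and 1.21 RPKM. Replicate 2 of shRNA-UBC9 overlapped with the controls, and TM7SF2 at -0.57 (interval -1.04 to -0.11) did not pass (limma, adjusted p = 0.056). HSD17B7, a sterol ketoreductase, was at 2.28 to 2.57 RPKM against 1.80 to 2.04 RPKM without overlap, and at -0.31 (interval -0.56 to -0.06) it did not pass either (limma, adjusted p = 0.0543). Both passed with quantile normalization and with median scaling, where 10 enzymes were lower. Pseudogenes of HSD17B7 reached 1.67 RPKM, so its reads may be shared with near-identical copies. DHCR7, which carries out the reduction that yields cholesterol in a closing branch of the pathway, was at 16.6, 12.7 and 14.6 RPKM in shRNA-NC and at 6.63, 10.7 and 9.69 RPKM in shRNA-UBC9. Both groups spread widely but did not overlap, and DHCR7 fell by 0.71 on the log2 scale (limma, SE 0.18, adjusted p = 0.0168). Of the 11 squalene and sterol genes, 4 were lower (36.4%, against 18.0% of all tested genes), with a median fold change of -0.31.

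Transport genes went both ways. NPC1, the lysosomal membrane protein that passes cholesterol out of the lysosome (chr18:23506184-23586506, minus strand), was at 5.74, 5.87 and 5.13 RPKM in shRNA-NC and at 10.1, 9.41 and 9.02 RPKM in shRNA-UBC9. All knockdown samples were above all controls, and NPC1 rose by 0.76 on the log2 scale (limma, SE 0.09, adjusted p = 0.000707). Its partner NPC2, the soluble protein that hands cholesterol to NPC1 (chr14:74476192-74494177, minus strand), was at 47.7, 60.9 and 52.5 RPKM against 36.2, 37.8 and 34.9 RPKM. Here all knockdown samples were below all controls, and NPC2 fell by 0.56 on the log2 scale (limma, SE 0.10, adjusted p = 0.00441). The pair that works in series in the lysosome thus changed in opposite directions, each past the test. Each gene shares exonic bases with an opposite-strand neighbour that moved in the same direction as itself. RMC1, listed under its older symbol C18orf8, shares 619 bases with NPC1 and was at 4.42, 5.83 and 4.93 RPKM against 7.52, 8.74 and 7.25 RPKM (log2 fold change 0.63, limma, adjusted p = 0.00605). ISCA2 shares 103 bases with NPC2 and was at 7.17, 7.37 and 6.27 RPKM against 5.46, 5.97 and 5.48 RPKM (log2 fold change -0.29, limma, adjusted p = 0.0454). Reads in the shared bases cannot be told apart.

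ABCA1, the exporter that loads cholesterol onto apolipoproteins (chr9:104781006-104928155, minus strand), was at 0.57, 0.82 and 0.90 RPKM in shRNA-NC and at 1.78, 1.42 and 1.39 RPKM in shRNA-UBC9. It was higher in 3 of 3 knockdown samples than in any control, from 194 to 347 reads in shRNA-NC and 446 to 729 reads in shRNA-UBC9. ABCA1 rose by 0.93 on the log2 scale (limma, SE 0.19, adjusted p = 0.0072), just short of the DEG cutoff, which it passed at 1.05 without shRNA-NC replicate 3. ABCG1, the exporter to mature lipoprotein particles, had 2, 27 and 3 reads in shRNA-NC and 26, 8 and 0 reads in shRNA-UBC9. It is therefore near 0 in both groups, and the 0 reads of shRNA-UBC9 replicate 3 allow a level of up to 0.0174 RPKM by counting error alone (3 reads). No comparison of ABCG1 could be made at this depth.

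SOAT1, which esterifies cholesterol for storage, was at 11.4, 11.3 and 11.4 RPKM in shRNA-NC and at 12.4, 13.8 and 13.3 RPKM in shRNA-UBC9. The groups did not overlap, but at 0.21 (95% interval 0.03 to 0.40) SOAT1 did not pass (limma, adjusted p = 0.0718), and it passed without shRNA-UBC9 replicate 1. STARD4, a carrier of cholesterol between membranes, was at 7.44, 8.54 and 8.53 RPKM against 5.85, 8.05 and 5.05 RPKM. Its second knockdown replicate lay within the controls, and at -0.39 (interval -0.76 to -0.02) it did not pass (limma, adjusted p = 0.0947), but did without that replicate. Of the 5 transport genes tested, 1 was lower (20.0%) and 2 were higher (40.0%), against 18.0% and 18.8% of all tested genes. There were 3 higher without shRNA-UBC9 replicate 1 and 2 lower without shRNA-UBC9 replicate 2.

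**Figure D4:**
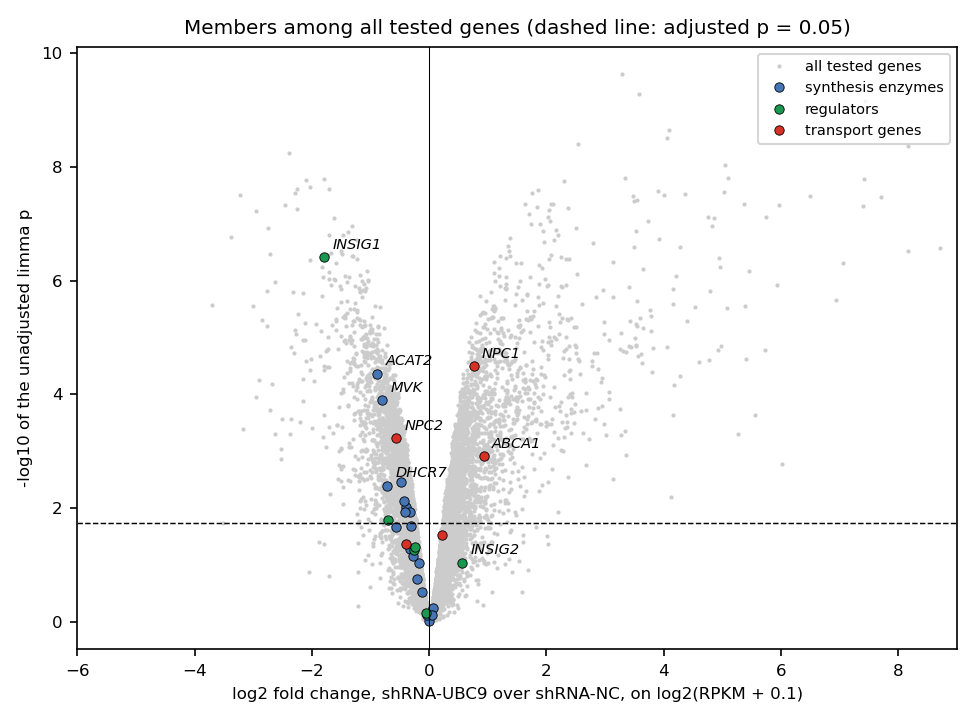
The members among all 12428 tested genes. The horizontal axis is the log2 fold change and the vertical axis the negative log10 of the unadjusted limma p, grey points are all tested genes, coloured points the members by role, and the dashed line marks adjusted p = 0.05. INSIG1 at -1.80 is set apart from the other members, and the enzymes called lower lie between -0.89 and -0.32, inside the cloud of grey points.

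Neighbouring genes of the same pathways, 79 in 7 lists, were counted beside the members. By the same limma test, 11 of the 71 tested were lower and 14 higher (15.5% and 19.7%). Over all tested genes the shares were 18.0% and 18.8%. The median fold change of the 71 was 0.01. Those that carry out further sterol synthesis steps or assist them fell in 3 of 6 tested cases. TMEM97, a sterol-responsive membrane protein that binds NPC1, was at 20.4, 21.6 and 17.5 RPKM against 5.08, 9.17 and 8.96 RPKM and fell by 1.39 on the log2 scale. EBPL, a relative of EBP, fell by 1.35, and LBR, which shares the reductase activity of TM7SF2, fell by 0.52. In this list the groups did not overlap, with shRNA-UBC9 lower, for 5 of 6 genes, against 25.4% of all tested genes. Of the 8 genes of acetyl-CoA supply and electron donors 1 was lower (12.5%), ACAT1, the mitochondrial thiolase, at -0.47. Of the 13 genes of the isoprenoid branch 2 were higher (15.4%), the RAB geranylgeranyl transferase subunits RABGGTA (0.68) and RABGGTB (0.44). Neither share exceeded that of all tested genes in its direction (18.0% lower and 18.8% higher).

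Among 14 genes of SREBP processing and of sterol-dependent degradation, 3 were lower (21.4%) and 2 were higher (14.3%). These shares were near the 18.0% and 18.8% of all tested genes. SREBF1, the gene of SREBP1, was at 11.7, 9.54 and 10.4 RPKM against 6.39, 7.57 and 8.15 RPKM and fell by 0.51 on the log2 scale, and the groups did not overlap. PGRMC2 (-0.38) and ERLIN2 (-0.32) were also lower. MBTPS1, the protease that makes the first cut in SREBP in the Golgi, rose by 0.29, and SPRING1, a cofactor of that protease, rose by 0.26. Among 16 tested genes of other sterol transfer, hydrolysis and esterification, 6 were higher (37.5%) and 1, OSBPL8 (-0.40), was lower (6.25%). The higher genes with the largest changes were GRAMD1B (1.52) and GRAMD1A (0.67), which take cholesterol from the plasma membrane to the endoplasmic reticulum, the oxysterol-binding protein relative OSBPL2 (0.74), and TMEM41B (0.62). GRAMD1B was at 0.61, 1.94 and 0.65 RPKM in shRNA-NC, where replicate 2 stood above the other controls, and at 3.23, 2.55 and 2.78 RPKM in shRNA-UBC9.

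Other differences between the same groups stood beside these. The 12 urothelial and epithelial markers listed, of which 7 were tested, summed to 961 to 1131 RPKM in shRNA-NC and 437 to 572 RPKM in shRNA-UBC9, with KRT5 and KRT20 at 0 in all 6 samples. The 7 leukocyte markers, of which 2 were tested, summed to 2.09 to 4.06 and 19.6 to 49.4 RPKM, most of it CD68 (log2 fold change 3.52). Summed levels of 5 endothelial markers were 2.64 to 3.26 and 0.35 to 1.07 RPKM, and those of 6 fibroblast markers 0.98 to 1.33 and 0.88 to 1.30 RPKM. Mitochondrially encoded messages took 8.28 to 8.76% of summed RPKM in shRNA-NC and 6.83 to 7.16% in shRNA-UBC9. Their part in the changes of the cholesterol genes was not tested.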

How the data were processed

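RNA of 3 shRNA-NC and 3 shRNA-UBC9 T24 samples was sequenced. The authors mapped reads to GRCh38 (hg38 in the submitters' processing notes) in CLC Biomedical Genomics Workbench 4 and deposited RPKM per gene, without read counts. RPKM corrects for gene length and mapped reads, not for RNA composition. The annotation release, strand setting and treatment of reads with several positions are not given in the sources used here.

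Values were taken to log2(RPKM + 0.1). The 12428 genes with at least 0.5 RPKM in at least 3 of 6 samples were fitted with limma 3.58.1 in R 4.3.3 (lmFit, trended eBayes). Adjustment was by Benjamini-Hochberg over all of them. Every adjusted p is from limma. An exact permutation test of 3 against 3 cannot go below 0.1. DEGs had a log2 fold change beyond 1 either way and adjusted p below 0.05. Nothing in the labels says that replicates were separate cultures, so p-values measure the spread between these samples, which may be technical. No pair of samples shared an equal value above 0.

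RPKM steps gave whole reads for 12428 of 12428 tested genes (100.0%, tolerance 0.03 reads). These reads served for depth and for an alternative with limma's voom, which called 2340 genes higher and 2265 lower. Replicate numbers did not pair the samples: deviations from group means of same-numbered samples correlated at -0.367, 0.073 and -0.17.

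The members and lists were chosen with earlier results of these data known. All members were named, and from each other list genes past adjusted p 0.05, at most 4 per direction by absolute fold change. CD68 and genes that overlap members were named beside results they touch. Gene positions and overlaps are from GENCODE release 44, promoters from RefSeq. The fit was tested on simulated data. The check of the knockdown itself is not reported here.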

Additional observations from a re-analysis of the deposited data

How the results depend on the processing

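The 6 calls of ACAT2, MVK, INSIG1, NPC1, NPC2 and ABCA1 held under every alternative that could give them, including each left-out library, and the filter of 1 RPKM in every sample removed ABCA1, MYLIP and TM7SF2. The other 7 calls are nearer the threshold. Enzymes lower were 8, and 4 with no filter, 10 with quantile normalization or median scaling, 9 with TPM or the filter of 1 RPKM, and 2 to 8 without single libraries, where calls were gained as well as lost. HSD17B7 passed under 5 of 16 alternatives and TM7SF2 under 4 of 15. With the replicate block, 5 enzymes and 1 regulator were lower, as the block ended the calls of IDI1, FDPS, LSS and MYLIP and of no other member. Regulators lower were 2, and 1 with the filter of 1 RPKM, 1 with no filter and 1 to 2 without single libraries. Transport genes lower were 2 at unadjusted p, and 1 to 2 without single libraries, and those higher were 1 under the filter of 1 RPKM, and 2 to 3 without single libraries. ABCA1 made 1 member past the DEG cutoff upward with a pseudocount of 0.01 and with voom, an alternative chosen after seeing the data, and 0 to 1 without single libraries. Over all genes, DEGs were 335 lower and 646 higher, 161 and 391 with a pseudocount of 1, 210 and 342 under the filter of 1 RPKM, and 308 to 363 and 604 to 702 without single libraries. Genes past adjusted p alone were 2237 lower and 2339 higher, and 1401 to 2003 and 1633 to 2180 without single libraries. The transport median of 0.21 was -0.088 under the filter of 1 RPKM, which removes ABCA1. Genes near 0 changed sign: GGPS1 to -0.001 with quantile normalization and -0.088 to 0.139 without single libraries, MSMO1 -0.013 to 0.13, NSDHL -0.099 to 0.072, EBP -0.046 to 0.048 and SCAP -0.13 to 0.053. Depth limits MYLIP (30 to 91 reads) and ABCG1 (0 to 27 reads).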

Other observations

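Of 11 LXR and oxysterol genes listed, 8 were tested, and these went both ways. Their part in the rise of ABCA1 was not tested. Of 8 tested, 2 were higher and 2 lower by limma (25.0% each, against 18.8% and 18.0% of all tested genes). NR1H2, which encodes the LXR form found in most tissues, was at 9.45, 7.38 and 8.82 RPKM in shRNA-NC and at 16.6, 15.1 and 16.5 RPKM in shRNA-UBC9, with no overlap, and rose by 0.91 on the log2 scale. CYP27A1, a sterol hydroxylase, rose by 0.65. LPCAT3, a phospholipid acyltransferase known as an LXR target, was at 8.01, 9.36 and 8.94 RPKM against 4.48, 5.16 and 4.78 RPKM and fell by 0.85.

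Of 6 tested lipoprotein receptor genes, 2 were higher (33.3%) and 1 lower (16.7%), against 18.8% and 18.0% of all tested genes. LRP10 was at 26.5, 20.0 and 24.2 RPKM against 36.5, 37.8 and 41.0 RPKM and rose by 0.71. SORT1, a sorting receptor, fell by 0.62. LSR was at 1.03, 6.94 and 0.87 RPKM in shRNA-NC and at 13.7, 8.61 and 6.12 RPKM in shRNA-UBC9. It was higher by limma at 2.20, yet replicate 2 of the controls stood far above the other controls and above 1 knockdown sample.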
